A study of Mus musculus with 11 samples.

Results

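Sox2, Sox9, Pax6, Lhx2, Emx2, Nfia, Nfib, Id3 and Id1 encode 9 regulators of gene expression that are known from radial glia, the stem cells of the developing brain. They were chosen by name, with earlier results of these data known, and they are 9 of the 21631 protein-coding genes of the mouse on chromosomes 1 to 19 and X. A peak was assigned to a gene when it overlapped the gene or lay within 5 kb of either of its ends on the build mm10, and peaks from there to 50 kb were counted separately as distal. CUT&RUN, in which a nuclease tethered to an antibody cuts the chromatin around a protein or mark so that the freed DNA can be sequenced, was carried out on 11 libraries from 2 mouse lines grown from tumours, M00002 and M00001. Both lines were untreated, were kept on Matrigel with bFGF and EGF, and carried an HA-tagged fusion that the labels write CRfus1 or Fus1, taken here as the ZFTA-RELA fusion of the series title. HA, which reads the fusion, and the IgG control were profiled in both lines. p65, the product of Rela, and the acetylated histone H3K27ac with the antibodies ac4729 and ac647 were profiled in M00002. The coactivators Cbp and p300, and Rpb1, the catalytic subunit of polymerase II, with antibodies written S2 and S5, were profiled in M00001. Each line carries the identifier of 1 mouse, every antibody has 1 library per line, and no line without the fusion is part of the comparison. The genotype, strain and age of the mice and the way the tumours arose are not given in the sources used here. With 1 library per antibody and line no difference could be tested, so all values below are descriptions, set beside the same count over all protein-coding genes.

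Radial glia line the ventricles of the embryonic forebrain, divide there, and give rise to neurons and later to glia and ependymal cells. Sox2 keeps neural stem cells undifferentiated, Pax6, Lhx2 and Emx2 pattern the cortical primordium, and Sox9, Nfia and Nfib act at the switch from making neurons to making glia. Id1 and Id3 have no DNA-binding domain of their own; they bind bHLH activators and keep them from DNA, and they are known targets of BMP signalling. Supratentorial ependymoma, the tumour in which the ZFTA-RELA fusion is found, is thought to arise from cells of this type. H3K27ac marks active promoters and enhancers, and the phosphorylated forms of Rpb1 are known from initiating and elongating polymerase.

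The deposited lists held between 1806 peaks (IgG of M00001) and 30680 peaks (HA of M00002), and HA of M00001 held 9365. Read depth is unknown, so the length of a list is no measure of occupancy, and the fold enrichment at a peak's summit, the authors' own ratio over the peak caller's background, was compared only with other peaks of the same list. IgG of the same line was overlapped by 2.54% of the HA peaks of M00002 and by 4.50% of those of M00001. H3K27ac of both antibodies lay at 7 of 10 other radial glia markers and receptors, 1 of 5 neuron, 1 of 5 oligodendrocyte lineage, 0 of 5 ependymal, 3 of 5 microglia and leukocyte and 4 of 5 endothelium genes of the marker lists, against 27.7% of all protein-coding genes. A peak is not a measure of expression, and the part of other cells in these values was not tested.

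The promoter sequences of 3 genes are shown because peaks of different kinds lay over their starts. HA lay before the start of Sox2 with weak H3K27ac just behind it, and HA with p65, p300 and Rpb1 lay at Id3. At the second start of Lhx2 only Rpb1 reached the stretch shown. HA of M00002 and H3K27ac with ac647 overlapped the Rpb1 S2 peak there but ended before that stretch. Each sequence runs 5′ to 3′ on the plus strand from 250 bases before the start of transcription to its first 20 bases, is taken from RefSeq on GRCm38.p6 (the assembly behind mm10), and has in capitals the bases under 1 peak.
Sox2: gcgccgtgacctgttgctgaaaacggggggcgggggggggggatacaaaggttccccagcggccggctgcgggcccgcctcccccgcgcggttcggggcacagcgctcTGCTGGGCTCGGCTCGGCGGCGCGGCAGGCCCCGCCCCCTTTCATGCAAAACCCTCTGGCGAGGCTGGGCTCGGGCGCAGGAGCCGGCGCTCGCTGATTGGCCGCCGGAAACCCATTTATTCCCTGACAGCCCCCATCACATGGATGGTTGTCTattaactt
Id3: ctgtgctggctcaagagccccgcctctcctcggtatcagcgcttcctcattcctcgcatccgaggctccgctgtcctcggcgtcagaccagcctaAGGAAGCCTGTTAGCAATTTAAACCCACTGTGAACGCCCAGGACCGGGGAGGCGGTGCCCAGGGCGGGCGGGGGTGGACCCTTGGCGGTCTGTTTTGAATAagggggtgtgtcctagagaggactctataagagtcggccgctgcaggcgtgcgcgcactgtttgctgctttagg
Lhx2: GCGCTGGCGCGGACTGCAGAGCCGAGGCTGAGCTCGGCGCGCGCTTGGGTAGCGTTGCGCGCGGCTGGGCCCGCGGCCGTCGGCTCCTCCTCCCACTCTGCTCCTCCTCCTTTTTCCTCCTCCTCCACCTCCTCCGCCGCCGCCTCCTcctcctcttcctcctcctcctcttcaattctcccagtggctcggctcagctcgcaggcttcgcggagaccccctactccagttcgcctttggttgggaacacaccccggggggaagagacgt
The Sox2 window is chr3:34649745-34650014 with the HA peak of M00002 in capitals, and the Id3 window is chr4:136143572-136143841 with the HA peak of M00002 in capitals. The Lhx2 window is chr2:38351058-38351327 with the Rpb1 S2 peak of M00001 in capitals. Promoters of 6 of the 9 genes were in the table; Sox9, Nfib and Id1 were not.

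HA was found at 8 of the 9 genes, and at 5 of them in both lines. In M00002 the HA list had a peak at 8 of 9 genes (50.2% of all protein-coding genes had one) and in M00001 at 5 of 9 (22.8%). HA was present in both lines at 5 genes, Sox9, Lhx2, Nfia, Nfib and Id3 (20.4% of all genes), and all 5 remained when HA peaks that overlap IgG of either line were left out (19.5%). Sox2, Pax6 and Id1 had HA in M00002 only, and Emx2 in neither line. Nfia and Nfib are long genes, of 541 kb and 217 kb, and among the 990 protein-coding genes of at least 200 kb HA lay at 88.3% in M00002, at 50.6% in M00001 and at 47.8% in both. When only peaks within 5 kb of a gene end were counted, HA in both lines was left at 3 of 9 genes, Sox9, Lhx2 and Id3 (14.5% of all genes). With only peaks of −log10 q of at least 5, HA was present in both lines at the same 5 genes as with all peaks (9.01% of all genes), and with the 5000 highest folds of each list at Sox9, Nfia and Nfib (10.3%).

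The marks of M00002 covered nearly the same genes as HA. H3K27ac with ac4729 lay at 8 of 9 genes (50.9% of all genes), all but Emx2, and with ac647 at 7 (29.2%), all but Emx2 and Pax6. p65 lay at 6 genes (33.5%), namely Pax6 and the 5 where both lines had HA. At 7 genes (33.8% of all genes) an HA peak of M00002 directly overlapped p65 or H3K27ac, and the 2 without such a site were Sox2 and Emx2.

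In M00001 the coactivators were found at fewer of the 9 genes than Rpb1, as they were over all genes. Cbp lay at 2 genes, Sox9 and Id3 (13.1% of all genes), and p300 at 3, Nfia, Nfib and Id3 (15.8%). Rpb1 lay at 5 genes with S2 (56.3%) and at 6 with S5 (33.9%), and at 7 with either (59.4%), leaving out Sox2 and Sox9. An HA peak of M00001 overlapped Cbp, p300 or Rpb1 at 3 genes, Sox9, Nfib and Id3 (15.1%). The IgG list of M00002 had a peak at 1 of the 9 genes, Nfib (11.2% of all genes), and that of M00001 at 0 (3.49%). The number of the 11 lists with a peak was 9 at Nfib, 8 at Nfia and Id3, 7 at Lhx2, 6 at Sox9, 5 at Id1, 4 at Pax6, 3 at Sox2 and 1 at Emx2. The median over the 9 genes was 6, against 3 over all protein-coding genes, 3 over 20 other transcription factor genes of radial glia and 7 over the genes of at least 200 kb.

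**Figure D1:**
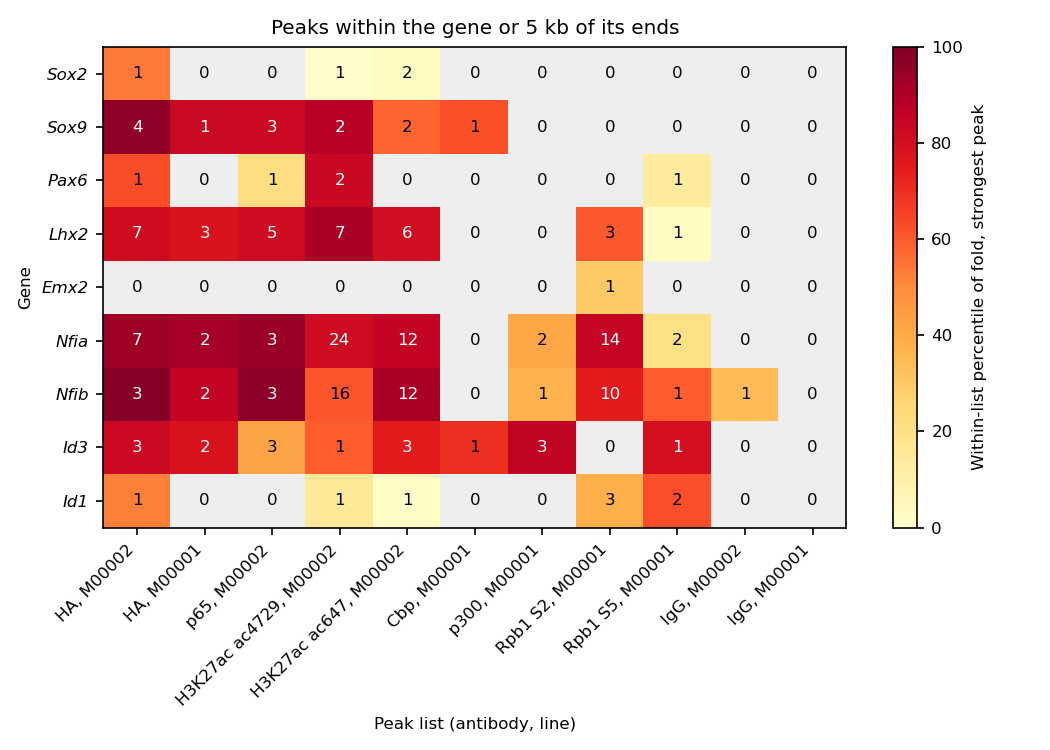
Number of peaks (figures in the cells) of each of the 11 lists (x axis) within each gene or 5 kb of its ends (y axis), coloured by the within-list percentile of the highest fold there, with grey for no peak. The HA and p65 columns are darkest at Sox9, Nfia and Nfib, the Emx2 row holds 1 peak, and the only IgG peak is at Nfib.

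**Figure D2:**
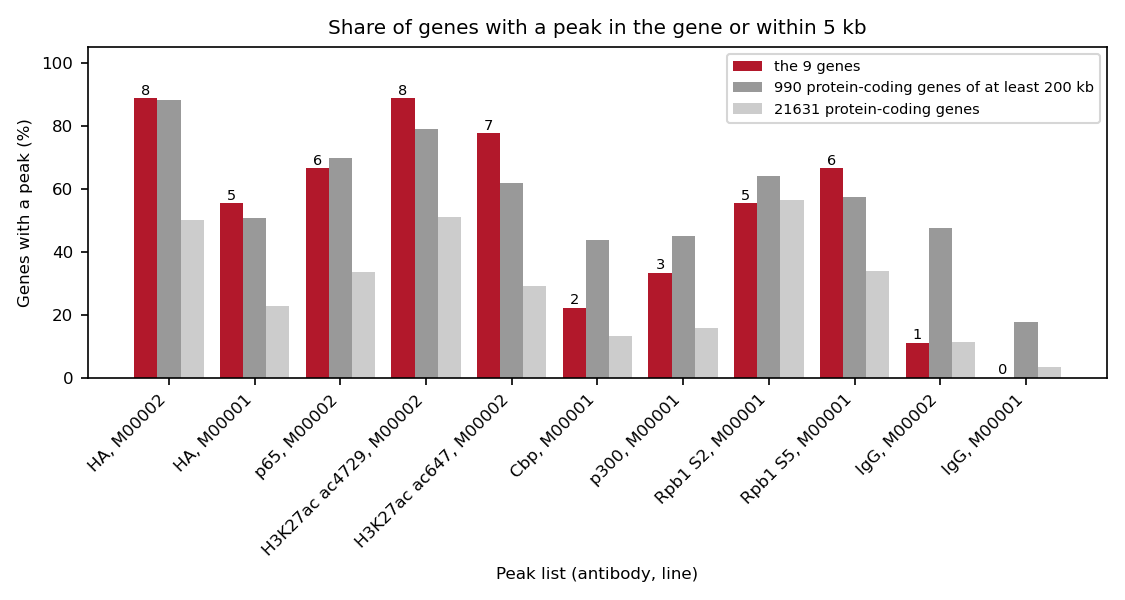
Percentage of genes with a peak (y axis) in each list (x axis), for the 9 genes (red, with their count above the bar), the 990 protein-coding genes of at least 200 kb (dark grey) and all 21631 protein-coding genes (light grey). The red bars stand above the light grey ones except for Rpb1 S2 and IgG, and near or below the dark grey ones for both HA lists, p65, Cbp, p300 and Rpb1 S2.

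HA peaks of M00002 at the 9 genes numbered 27. Their folds ran from 2.99 to 20.9 with a median of 5.72, and 22 of them lay above the median fold of that list. Inside a gene lay 18 of them, with 7 each in Lhx2 and Nfia, and the share of all HA peaks inside genes was not counted. p65 overlapped 13 of the 27 (33.7% of all HA peaks of M00002 did), H3K27ac of either antibody overlapped 17 (39.7%), an HA peak of M00001 overlapped 8 (16.9%), and IgG of either line overlapped 0 (2.64%). The 10 HA peaks of M00001 had folds from 2.98 to 9.74, with 6 above the median fold of their list. Of these 10, 8 lay on an HA peak of M00002 (55.4% of all HA peaks of M00001 did). These 8 shared sites were spread over 5 genes, with 3 at Lhx2, 2 at Id3 and 1 each at Sox9, Nfia and Nfib. p65 overlapped HA of at least 1 line at 8 of the 8 and H3K27ac at 7, the exception being a site beyond Id3. Among all 5074 HA sites shared by the lines 83.6% overlapped p65 and 83.1% H3K27ac in the same way, so these counts are near the background. p65 is itself part of the fusion, and whether the p65 antibody reads the fusion was not tested.

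**Figure D3:**
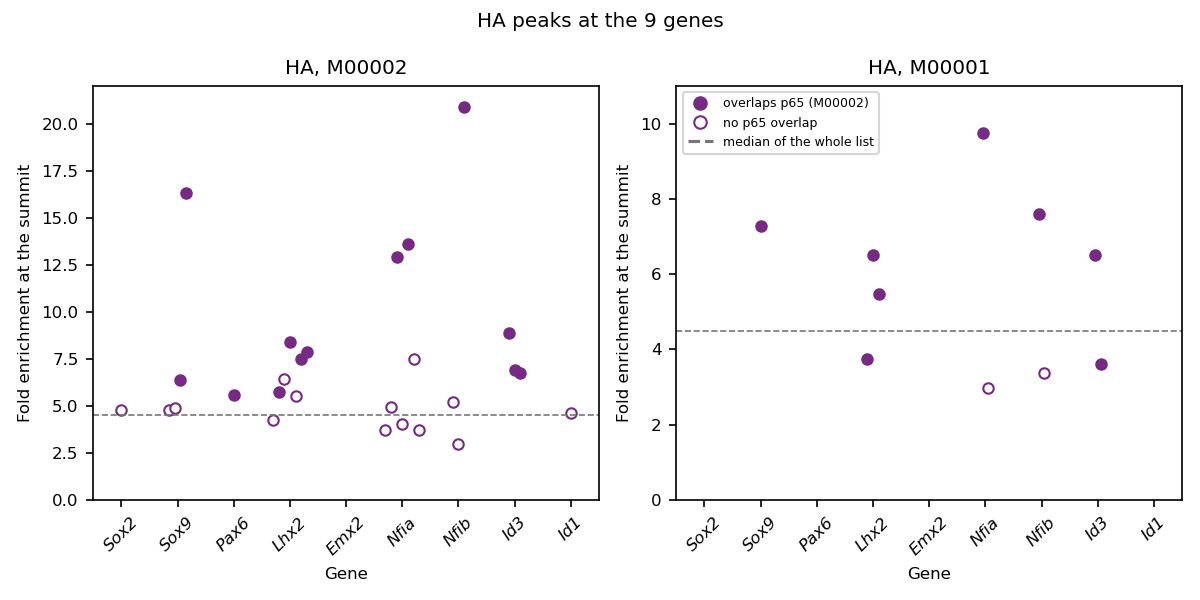
Fold enrichment at the summit (y axis, a linear scale that differs between the panels) of every HA peak at each gene (x axis) in M00002 (left) and M00001 (right), filled where the peak overlaps p65 of M00002, with the median fold of the whole list as a dashed line. In M00002 the 4 highest points, at Nfib, Sox9 and Nfia (2 points), are all filled, and in M00001 the 2 open points are the lowest ones of Nfia and Nfib.

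Among the Sox genes, Sox9 carried a strong HA site and Sox2 a weak one. Sox9, which drives the start of gliogenesis, lies at chromosome 11, 112782210 to 112787757, and had 4 HA peaks in M00002. Their folds were 4.79, 4.90 and 6.36 below the lower end of the gene and 16.3 at 112788387 to 112788595, beyond the higher end by 630 bp. This last peak ranked 1117 of 30680 in its list, had a −log10 q of 30.1, and was met by the only HA peak of M00001 at Sox9, at 112788120 to 112788565, with a fold of 7.28. The summits of the 2 lines lay 93 bp apart. p65 (fold 8.56) and H3K27ac with ac4729 (5.59) overlapped both HA peaks, while H3K27ac with ac647 (4.50) and Cbp (3.77) overlapped that of M00001 alone. A second p65 peak, with a fold of 7.47, sat over the lower end of the gene at the HA peak of fold 6.36. Sox9 thus had HA, p65, acetylation and Cbp within 1 kb of an end, and no polymerase peak: the nearest one was 244 kb away for S5 and 344 kb for S2.

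At Sox2, the factor that keeps neural stem cells in their state, a single HA peak was found. It lay in M00002 over the start of the gene, at chromosome 3, 34649853 to 34650006, with a fold of 4.80 (rank 14230 of 30680) and a −log10 q of 2.98, and its summit was 95 bases before the start, in the capitals of the sequence shown. No peak of any other list overlapped it. H3K27ac was near the bottom of both lists there, with folds of 2.39 and 2.75 for ac647 and 2.36 for ac4729. The nearest HA peak of M00001 was 235 kb away, that of p65 36.1 kb, and those of Rpb1 32.9 kb for S5 and 33.4 kb for S2. Sox2 therefore had HA in 1 line, beside the weakest acetylation of the 8 genes that had any with ac4729.

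The cortical patterning genes differed widely. Lhx2, a LIM homeodomain gene that specifies cortex, lies at chromosome 2, 38339271 to 38369737, and held 7 HA peaks in M00002, all inside the gene. Their folds were 4.26, 5.72, 6.43, 8.39, 5.55, 7.48 and 7.84 from the lower to the higher coordinate. The 3 HA peaks of M00001 had folds of 3.74, 6.50 and 5.47 and each met an HA peak of M00002. At 38355205 to 38355401 the HA peaks of both lines had the same bounds, with folds of 7.48 and 6.50, and p65 had 5.19. At 38367034 to 38367222, near the higher end of the gene, HA had 7.84 in M00002 and 5.47 in M00001, p65 had 8.27 and H3K27ac had 5.92 with ac4729 and 3.52 with ac647. That is the strongest p65 and the strongest ac4729 site of Lhx2. Another shared site, at 38348015 to 38348113, was met by p65 only through the HA peak of M00001. The HA peaks of the lines overlapped there by less than 50% of the shorter one.

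Rpb1 lay elsewhere in Lhx2 than these shared sites. The S2 peak with the highest fold there, 4.27, covered 38350859 to 38351205, in front of the second RefSeq start, and S5 reached 2.90 at 38350983 to 38351187. H3K27ac with ac647, with a fold of 3.08 at 38350258 to 38350872, overlapped the lower end of the S2 peak. Of the HA peaks only that of M00002 at 38350926 to 38351041, with a fold of 5.55, overlapped the S2 and S5 peaks. It ended before the window shown above and reached into the promoter window of Gm27197 on the opposite strand, so the promoters of the gene pair cannot be told apart here. No HA, H3K27ac or p65 peak lay over the 300-base promoter window of either start of Lhx2, and no Cbp or p300 peak within 5 kb of the gene. Just inside the gene, however, the HA peak of M00002 with a fold of 4.26 had its summit 241 bases from the first start. H3K27ac with ac4729 (3.73) overlapped this HA peak, and ac647 (4.23) overlapped that ac4729 peak.

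Pax6, a paired-box factor of the cortical stem cells and the eye, had 1 HA peak, inside the gene at chromosome 2, 105675312 to 105675404. It was found in M00002 with a fold of 5.58 and was overlapped by p65 (3.67), H3K27ac with ac4729 (4.33) and Rpb1 S5 of M00001 (3.30). Summits of HA, p65 and S5 were at most 40 bp apart, 6452 bases from the nearest RefSeq start for HA. The p65 and S5 peaks were weak, with −log10 q of 1.15 and 0.895. A stronger ac4729 peak, with a fold of 5.21 at 105689978 to 105690629, was overlapped by no other list, and ac647 had no peak within 50 kb of Pax6.

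Emx2, a homeobox gene of the medial and caudal cortex, had 1 peak in the 11 lists. Rpb1 S2 of M00001 covered its start at chromosome 19, 59458396 to 59458719, with a fold of 3.28 and a −log10 q of 2.43. The antisense gene Emx2os also lies under this peak. The nearest HA peak was 46.9 kb away in M00002, with a fold of 2.99, and 179 kb away in M00001. H3K27ac with ac4729 was nearest at 23.3 kb, and with ac647 at 76.5 kb.

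The strongest HA peak of M00002 at any of the 9 genes was inside Nfib, which with Nfia belongs to the nuclear factor I family. It lay at chromosome 4, 82435526 to 82436015, with a fold of 20.9 in M00002 (rank 422 of 30680) and a −log10 q of 48.2. HA of M00001 had a fold of 7.60 at 82435653 to 82435909, with its summit 10 bp from that of M00002. p65 had 15.3 with its summit 7 bp away, H3K27ac had 3.61 with ac4729 and 6.92 with ac647, and Rpb1 S2 had 3.13. HA of both lines, p65, both H3K27ac lists and S2 thus met at 1 site inside the gene. The IgG peak of M00002 at Nfib, at 82436502 to 82436649, overlapped none of them and had a fold of 3.34 and a −log10 q of 0.282. A second HA peak of M00001, at 82447304 to 82447449 with a fold of 3.36, had no HA of M00002 but overlapped p300 (3.69), Rpb1 S2 (5.10) and Rpb1 S5 (4.42). This HA peak was weak, with a −log10 q of 0.707 and rank 8080 of 9365, and p300 there had a −log10 q of 1.78. The Rpb1 peaks at this site were the strongest of Nfib.

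Nfia, which is needed for the start of gliogenesis, held 7 HA peaks of M00002 over its 541 kb, with folds from 3.74 to 13.6. The highest, at chromosome 4, 97847437 to 97847863, ranked 2024 of 30680. HA of M00001 had its highest fold at the 9 genes there, 9.74 (rank 738 of 9365), and p65 had 7.03, ac4729 3.55 and ac647 4.90. A second site, at 97815005 to 97815093, had HA at 12.9 in M00002 and p65 at 13.1 with summits 6 bp apart, but no HA of M00001 and no H3K27ac. The highest p65 fold of Nfia was thus at a site without acetylation, and the highest HA fold at a site with it. Of the 7 HA peaks, 2 overlapped p65 and 4 overlapped H3K27ac with ac4729.

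Acetylation and polymerase were spread along both genes. Nfia held 24 peaks with ac4729 (folds from 2.37 to 5.10), 12 with ac647 (2.66 to 6.02) and 14 of Rpb1 S2 (2.86 to 5.98), and Nfib held 16 (2.69 to 4.31), 12 (2.94 to 6.92) and 10 (2.40 to 5.10). Per 100 kb of gene and flanks, Nfia had 4.36 and Nfib 7.06 peaks with ac4729, against 1.76 over all gene windows, while HA of M00002 had 1.27 and 1.32 against 1.64. HA of M00001 had 0.363 at Nfia and 0.883 at Nfib against 0.466. HA was thus denser than over all gene windows only at Nfib in M00001, from 2 peaks, while ac4729 was denser at both genes. Sox9, Lhx2 and Id3 had 25.7, 17.3 and 25.9 HA peaks per 100 kb in M00002, over short windows in which 1 peak weighs heavily.

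**Figure D4:**
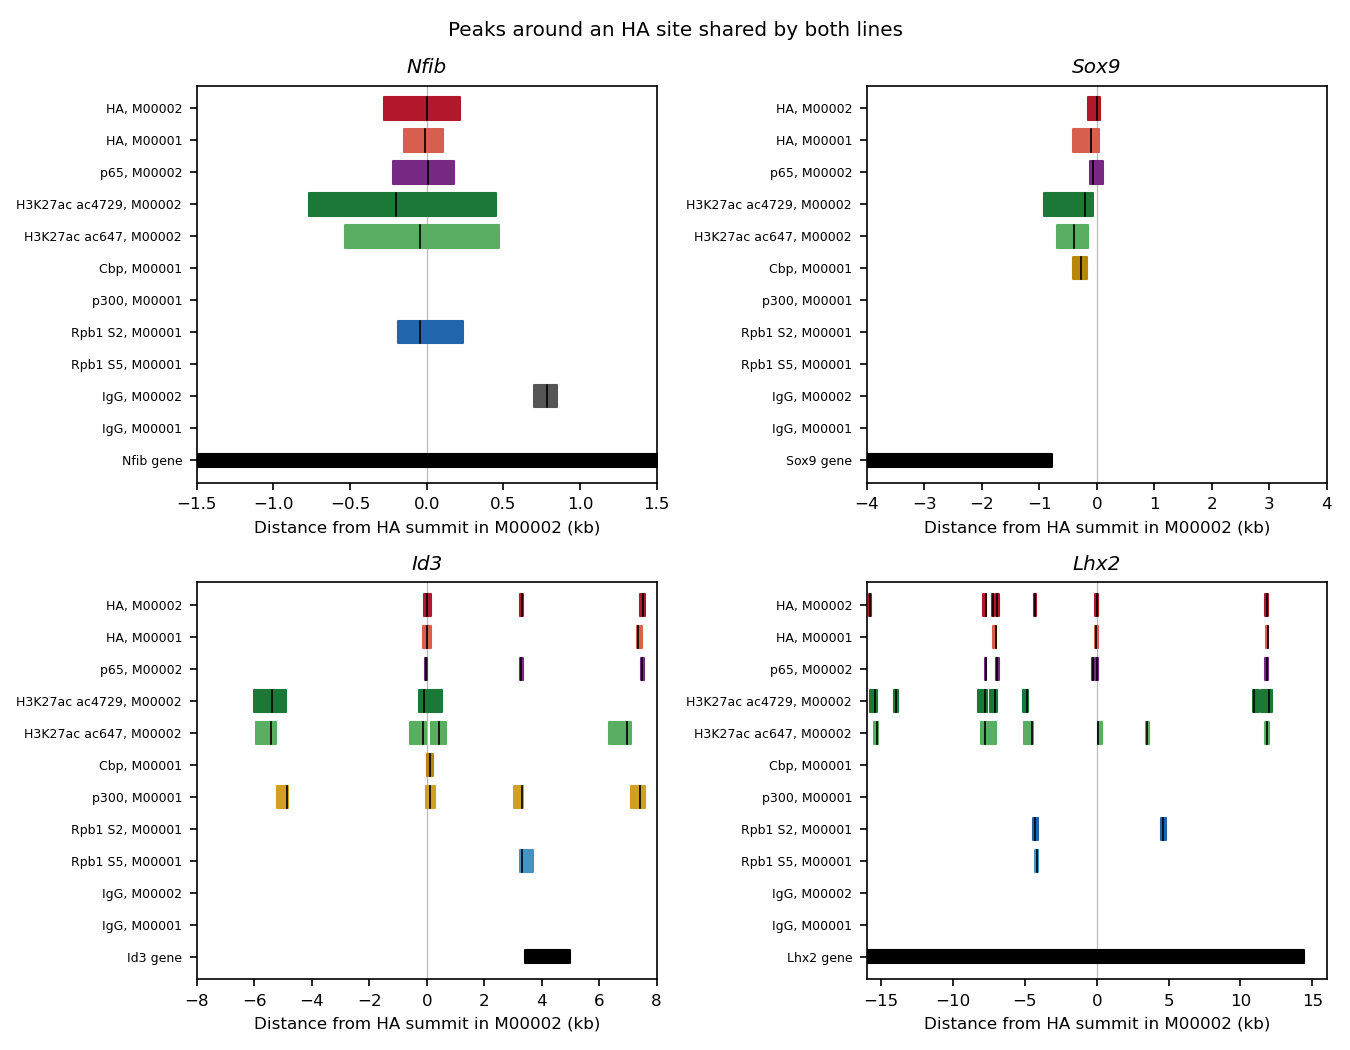
Peaks of the 11 lists (rows, boxes with the summit as a black line) around an HA site shared by both lines at Nfib, Sox9, Id3 and Lhx2, against distance from the HA summit of M00002 in kb (x axis, a different range in each panel), with the gene as a black bar. At Nfib the summits of HA of both lines and p65 lie within 10 bp of the line at 0, at Sox9 no Rpb1 row is filled, and at Id3 the p300 peaks sit at all 3 HA sites.

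The Id genes showed most lists at Id3. Id3 lies at chromosome 4, 136143822 to 136145392, and had 3 HA peaks in M00002, with folds of 8.86, 6.93 and 6.75. The first, at 136140322 to 136140554, lay before the gene by 3268 bp and was met by HA of M00001 (6.52), with summits 7 bp apart. It was also overlapped by p300 (5.46), Cbp (4.08), H3K27ac with ac4729 (4.26) and ac647 (5.21), and p65 (3.29). The site thus held 7 of the 11 lists, lacking only Rpb1 and IgG. It was the only site at the 9 genes where Cbp and p300 met each other.

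The second HA peak of Id3 lay over the promoter, at 136143667 to 136143767, and is the stretch in capitals in the sequence shown. It had a fold of 6.93 and a −log10 q of 7.64, and p65 (4.38), p300 (3.23) and Rpb1 S5 (5.45) overlapped it. The summits of HA, p300 and S5 were all 95 bases before the start and that of p65 120 bases. HA of M00001 had no peak there, nor had H3K27ac or Rpb1 S2. The last, at 136147837 to 136147995, beyond the gene by 2445 bp, was shared with M00001 (3.61) and overlapped p65 (3.39) and p300 (3.57), without H3K27ac. Each of the 3 HA sites of Id3 had p65 and p300, while H3K27ac was at the first alone. The p65 peaks at the first and last sites were weak, with −log10 q of 0.647 and 0.654. HA of M00001 at the last was weak too, with 1.06, and overlapped that of M00002 by less than 50% of the shorter peak.

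Id1, the related inhibitor on chromosome 2 (152736251 to 152737410), had a single HA peak within 5 kb. It lay beyond the gene by 1941 bp, at 152739351 to 152739599, with a fold of 4.63 in M00002, near the median of its list, and overlapped H3K27ac with ac4729 (3.16), Rpb1 S2 (2.39) and Rpb1 S5 (2.77). The gene itself was covered at its lower end by Rpb1 S2 (3.50) and S5 (4.57) and had no HA of M00001 and no p65. A much stronger HA site lay just outside the 5 kb limit, at 152730380 to 152730715, 5536 bp below the gene. Its HA fold of 19.5 ranked 576 of 30680 in M00002, with a −log10 q of 50.7, and p65 (13.8) and both H3K27ac lists overlapped it. The p65 peak there, 5537 bp from Id1, was the nearest of its list, and HA of M00001 had no peak there.

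Over 300-base promoter windows, HA of M00002 covered that of 2 of the 6 genes that had one, Sox2 and Id3 (19.0% of 17274 genes). HA of M00001 covered 0 (8.12%) and p65 covered 1, Id3 (11.2%). H3K27ac covered 0 with ac4729 (25.6%) and 1 with ac647, Sox2 (7.66%). Cbp covered 0 (2.28%), p300 1, Id3 (5.53%), Rpb1 S2 2, Lhx2 and Emx2 (39.4%), and Rpb1 S5 2, Lhx2 and Id3 (19.3%). Motifs were searched on both strands in the same windows, each match counted also where it overlapped another. GGGCGG, the core of the GC box, was found in 4 of the 8 windows of the 6 genes, at Sox2, Lhx2, Emx2 and Id3. It was found in 46.7% of 21045 promoter windows, so this count is near the background. At Sox2 a match began 111 bases before the start, and at Id3 overlapping matches began 94 and 90 bases before it, all in the capitals shown. The NF-kappaB consensus was found in 2 of the 8 windows, the first of Pax6 and the second of Lhx2 (4.86% of all windows), in neither case under a peak of HA or p65. GGGGCCCC was found in 0 of the 8 (1.34%). A match describes the sequence only.

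Farther out, between 5 and 50 kb, Id1 and Id3 had the most peaks, 26 and 22 over all lists, and Pax6 and Emx2 the fewest, 3 each. Lying 19.8 kb before Id3, HA had a fold of 10.6 in M00002 at 136123841 to 136124001 and of 5.42 in M00001 at 136123565 to 136124000. H3K27ac of both antibodies and Rpb1 S2 overlapped both, and p65 (4.88) and p300 overlapped the peak of M00001. A weaker HA peak of M00002, at 136123563 to 136123707 with a fold of 3.75 and a −log10 q of 1.41, also met that of M00001. It was overlapped by p65 and p300 too. No protein-coding gene lay within 5 kb of this site. On the other side of Id3, HA peaks of M00002 with folds of 5.88, 9.23 and 3.74 lay over E2f2, a cell cycle gene, the first of them shared with M00001 (3.63). The distal HA sites of Id3 thus lay either in E2f2 or, at the stronger of the sites shared by the lines, with no coding gene near.

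At Id1, HA of both lines met 48.0 kb above the gene at 152785423 to 152785789, inside Bcl2l1, an inhibitor of apoptosis, with folds of 10.7 and 9.14. p65 (10.2), both H3K27ac lists, Cbp and both Rpb1 lists overlapped it. Below the gene, 17.9 kb away, another HA peak of M00002 (8.60) overlapped p65 and ac4729. The strong sites around Id1 were thus outside its 5 kb flanks, and only that in Bcl2l1 was seen in both lines. Sox9 had an HA peak of fold 9.14 in M00002 at 46.1 kb with p65 (10.5), and Nfib one of 7.91 at 29.0 kb with p65 and both H3K27ac lists. HA of M00001 had no peak between 5 and 50 kb from any of the 9 genes except Id3 and Id1. Within 50 kb of Sox2, H3K27ac of both antibodies met at 2 places without HA, the stronger at 12.4 kb with folds of 2.42 for ac4729 and 3.43 for ac647. IgG had distal peaks at Sox2 (34.4 kb, M00002) and Id3 (26.6 kb, M00001), and neither overlapped an HA peak.

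**Figure D5:**
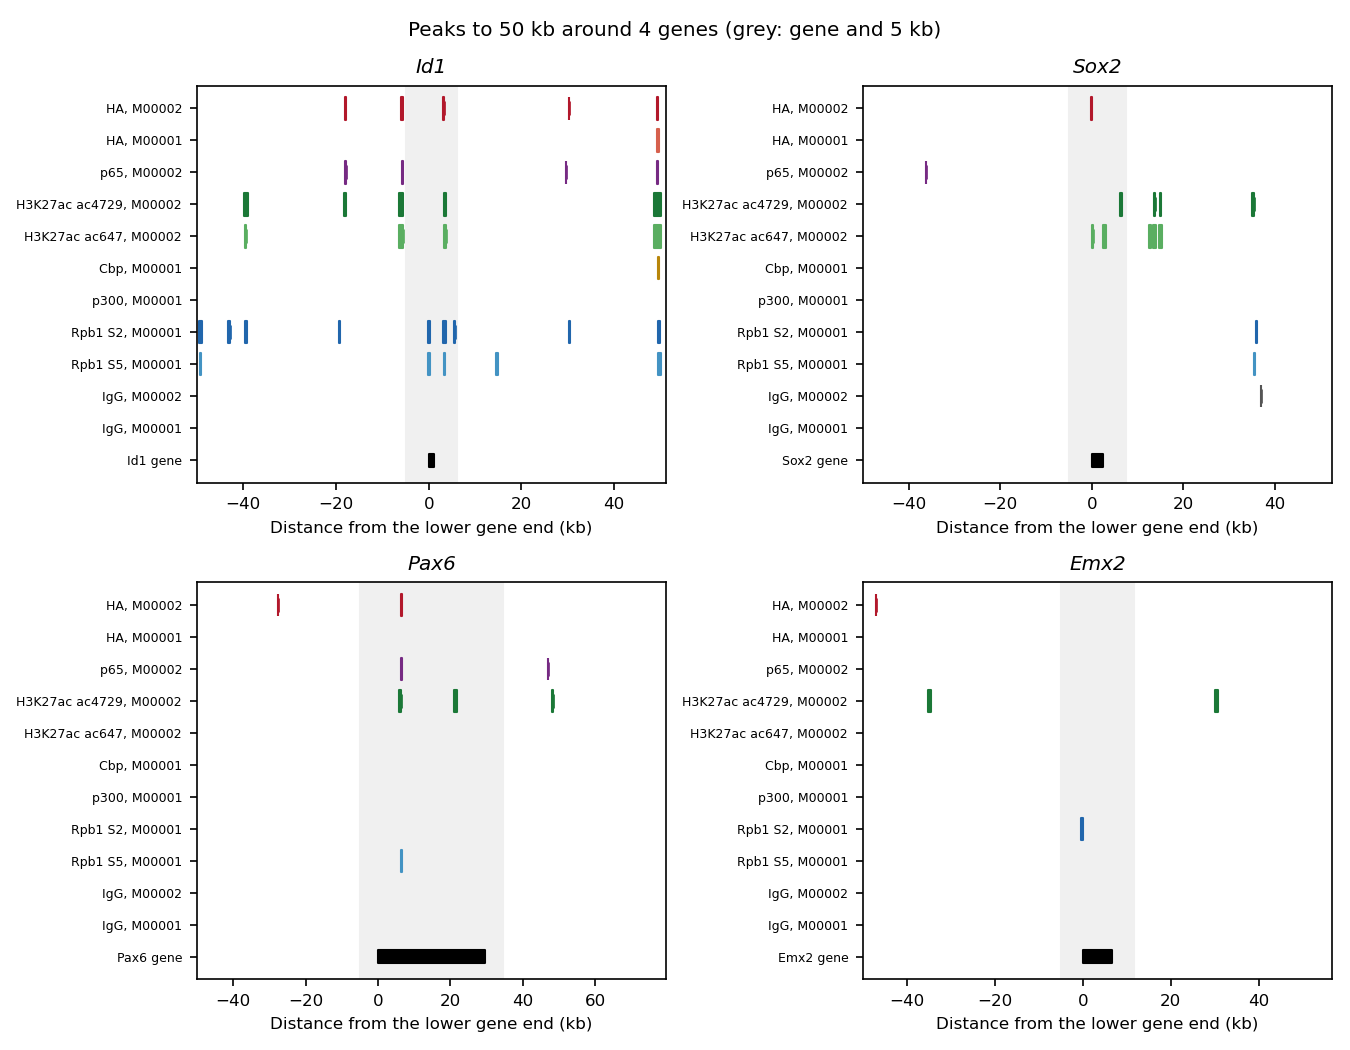
Peaks of the 11 lists (rows) to 50 kb on each side of Id1, Sox2, Pax6 and Emx2, against distance from the lower-coordinate end of the gene in kb (x axis), with the gene as a black bar and the gene with its 5 kb flanks in grey. The HA, p65 and H3K27ac peaks at about 6 kb below Id1 fall outside the grey band, and the Emx2 band holds 1 peak, of Rpb1 S2.

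With gene bodies counted, HA and the marks lay at smaller shares of other radial glia genes, a difference with no test. Of 20 other transcription factor genes, HA lay at 13 in M00002 and 7 in M00001, p65 at 11, H3K27ac of both antibodies at 7 and Rpb1 at 10. Near gene ends alone, p65 went the other way, at 3 of the 9 genes and 9 of these 20, as did p300, at 1 and 4. HA kept the larger share at the 9 there, with 6 against 11 of 20 in M00002 and 3 against 4 in M00001. So did H3K27ac, with 7 against 8 for ac4729 and 6 against 5 for ac647. HA free of IgG in both lines lay at 5 of the 20: Hes1 (folds 11.3 in M00002 and 8.07 in M00001), the Notch effector that keeps radial glia undifferentiated, Gli3 (12.2 and 6.99), a transcription factor of Hedgehog signalling, Otx1 (11.1 and 6.16), a homeobox gene, and Nfix (11.3 and 3.80) and Nfic (14.6 and 11.1). All 4 nuclear factor I genes therefore had HA in both lines, with 1 IgG peak of M00002 at Nfix as at Nfib. Of all protein-coding genes 20.4% had HA in both lines, and of those of at least 200 kb, as Nfia and Nfib are, 47.8%. Near gene ends alone, neither Nfia nor Nfib had HA in both lines. No HA was found in either line at Sox1, Sox21, Hey1, Otx2 and Nr2f1, and no peak of any other list either. Of 10 other markers and receptors, 2 had HA free of IgG in both lines, Vim (5.74 and 7.20), an intermediate filament of radial glia, and Notch1 (11.8 and 5.50), the receptor above Hes1. H3K27ac of both antibodies lay at 7 of these 10, close to the 7 of the 9 genes.

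The genes most like each of the 9 were taken from those with the same presence or absence in all 11 lists, by the mean difference in within-list percentile of the strongest peak. For Sox9, 14 genes had the same pattern and Adcy7 was nearest, with a mean difference of 4.29 percentile points. Lhx2 shared its pattern with 523 genes, with Trmt61a nearest (6.23), and Nfia with 405, with Foxo6 nearest (4.91). Nfib shared it with 70 (Fndc3b, 8.24) and Id1 with 267 (Col1a1, 12.3). Pax6 shared its pattern with 17 genes, and the nearest, Ptpru, was 21.2 percentile points away. Sox2 and Emx2 had peaks in fewer than 4 lists and were not compared.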

How the data were processed

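Each library was deposited by the authors as a peak list of its own, so replicates were not pooled. The submitters' processing notes name mm10 as the build and, without settings, MACS2, Bowtie2 2.3.5.1, Trim Galore, FastQC and deepTools; a control for peak calling is not named in them. For every peak the authors deposited a score, the fold enrichment (ratio) over background at its summit, −log10 of p and q, and where the summit lies, per the column order of MACS2. The lowest −log10 p was 3.00, and the lists were not limited by q. A mark in the file names sets the p65 and HA lists of M00002 apart from the rest; what it means is not known here, and for HA it cannot be told apart from the line.

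Peaks on chromosomes 1 to 19 and X were kept. Protein-coding genes were placed by their ends on GRCm38.p6; exons, introns and peak sequences were not analysed here. Overlap meant at least 1 bp. Percentiles and ranks of fold are within a list. The members and gene lists were chosen with earlier results of these data known. Named genes were the 9, listed radial glia genes with HA free of IgG in both lines, the first 5 of the list without HA in either, the gene most like each member, and neighbouring coding genes. The region sequences that the rule also foresaw were not printed. Alternatives were peaks near gene ends only, windows of 1 kb and 25 kb, −log10 q of at least 5, the 5000 highest folds, removal of peaks at IgG, 50% overlap and summits within 250 bp. Python 3.11.15, pandas 2.3.3, numpy 2.4.6 and matplotlib 3.10.9 were used, and overlap code was tested on simulated data. The gene most like Id3 is not reported here.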

Additional observations from a re-analysis of the deposited data

How the results depend on the processing

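Of 91 recounts under other settings, 63 stayed within 1.5 times the count reported and 28 moved. Windows of 25 kb, removal of peaks at IgG, 50% overlap and summits within 250 bp moved 0 by this rule. Under 50% overlap, 6 of the 10 HA peaks of M00001 were still shared, against 8 of 10 as reported. The sites lost were that at 38348015 to 38348113 in Lhx2 and that beyond Id3. Counting only peaks within 5 kb of a gene end, which leaves out the bodies of Nfia and Nfib, gave HA in M00001 at 3 of 9 genes (16.5% of all genes), p65 at 3 (25.1%), p300 at 1 (10.4%, near the share of the 9), Rpb1 S5 at 2 (27.7%, above the share of the 9), HA in both lines at 3 (14.5%), HA of M00002 with p65 or H3K27ac at 4, 4 shared HA peaks and IgG at 0. A 1 kb window gave ac4729 at 5 genes, Cbp at 1 and H3K27ac of both antibodies at 4. With −log10 q of at least 5, HA of M00002 lay at 5 genes, ac647 at 4, Cbp at 0, p300 at 1, Rpb1 S5 at 2, H3K27ac of both antibodies at 4 and IgG at 0, and 5 HA peaks were shared. HA in both lines was then still found at Sox9, Lhx2, Nfia, Nfib and Id3 (9.01% of all genes). With the 5000 highest folds of each list, HA of M00002 lay at 3 genes, ac4729 at 3, ac647 at 4, Rpb1 S2 at 1, Rpb1 S5 at 3, HA in both lines at 3 (Sox9, Nfia and Nfib; 10.3% of all genes), H3K27ac of both antibodies at 1 and HA of M00002 with p65 or H3K27ac at 3, and 3 HA peaks were shared. Of the HA peaks of M00001 left, 4 of 4 were shared near gene ends and 5 of 5 at −log10 q of at least 5. With the 5000 highest folds 3 of 6 were shared. These settings hold fewer peaks or less sequence by construction. Apart from single lists near gene ends and HA in both lines, the share over all genes was not counted under them. Recounts without such a share are no result about the 9 genes.

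No paired analysis was possible because each antibody had 1 library per line and the counts come from no test. Read depth is unknown, so a gene without a peak is one where none was called, not one shown to be free of the protein. Marks of M00002 and coactivators of M00001 come from different lines, and an overlap between them does not show both in the same cells. A gene counts with HA in both lines without a shared site, although all 5 genes had one.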
